A study of Mus musculus with 4 samples.

Results

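The 4 Hox clusters of the mouse genome were described from accessibility peaks of progenitor and differentiated oligodendrocyte lineage cells. The 38 Hox genes considered were taken by name from the 21887 protein-coding genes of the annotation: 10 genes of Hoxa, 10 of Hoxb, 9 of Hoxc and 9 of Hoxd. All 38 matched the annotation by symbol. No measured value decides which gene is listed, although the family was chosen for description with earlier results of these data known. Chromatin accessibility was profiled by Omni-ATAC-seq, an assay in which the Tn5 transposase cuts and tags open DNA, and each library was deposited as a list of peaks without read counts. The oligodendrocyte progenitor cells (OPCs) came from 2 lines of mouse epiblast stem cells, named 129O1 and EpiSC5. They were cultured with the growth factors bFGF and PDGFA (20 ng/mL each) and without SHH, purified for CD140a and NG2 after 4 passages, and expanded. The oligodendrocytes (OLs) were differentiated from such OPCs and sorted for O1, a surface lipid antigen of maturing oligodendrocytes. There were therefore 2 OPC libraries and 2 OL libraries, 1 per line, with no other genotype or agent named. The strains 129SvEv and 129S1/SvImJ are named in the labels, but only the order of the names would tie a strain to a line, so neither line is given a strain here. No statement that the libraries came from separate differentiations was found, and the p-values therefore reflect only how these 4 libraries vary, which may be technical.

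Hox genes encode homeodomain transcription factors that give cells their position along the head-to-tail axis. Within each cluster the genes lie in the order of their expression domains: the anterior genes (paralog groups 1 to 3) are first used in the hindbrain, the central genes (groups 4 to 8) in the cervical and thoracic levels, and the posterior genes (groups 9 to 13) in the lumbar, sacral and tail levels. The clusters are classical targets of Polycomb repression, are opened by retinoic acid and by Cdx and trithorax factors, and stay silent in the forebrain and midbrain.

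The measure used for a gene was its covered sequence, the number of base pairs of the gene and 2 kb on either side that lie under listed peaks, scaled so that all 4 libraries have the same total. The lists held between 125002 and 152595 peaks over 35.0 to 44.1 Mb; the EpiSC5 OL list was the longest by number of peaks. Of the oligodendrocyte markers, 5 of the 9 tested were higher in OLs and none lower (limma, adjusted p below 0.05). Of all genes tested, 11.0% were higher and 8.63% lower. The summed covered sequence of the oligodendrocyte markers was 9.12 and 12.98 kb in OPCs against 19.8 and 23.2 kb in OLs. The labelled OPC markers gave 37.8 and 38.8 kb in OPCs and 46.9 and 49.8 kb in OLs, with Sox6 higher in OLs. Pluripotency markers covered 1.23 to 1.447 kb in every library, and Pou5f1, Zfp42 and Dppa4 had no listed peak.

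The Hox clusters differed from each other in how much of them was covered. The Hoxa cluster (mm10, chromosome 6, 52162417 to 52260880 from the first to the last listed gene) carried 36, 28, 32 and 32 peaks in the 129O1 OPC, 129O1 OL, EpiSC5 OPC and EpiSC5 OL libraries, counted over the cluster and 50 kb on either side. The Hoxb cluster (chromosome 11, 96194316 to 96368254) carried 44, 28, 27 and 13 peaks in the same order. The Hoxd cluster (chromosome 2, 74668225 to 74765142) carried 28, 21, 15 and 11. The Hoxc cluster (chromosome 15, 102921131 to 103036856) had the fewest, 11, 9, 14 and 8. Peaks were thus listed for Hoxa at similar numbers in both lines, and for Hoxb and Hoxd at higher numbers in 129O1. The covered share was ranked among the 9888 windows of 200 kb that held a mean of at least 500 bp of covered sequence. Windows with less were left out. There Hoxa lay at percentiles 93.8, 82.6, 95.3 and 85.4 in the 4 libraries. Hoxb lay at 91.3, 69.0, 69.3 and 17.3, Hoxd at 88.1, 78.8, 44.9 and 29.5, and Hoxc at 29.1, 25.5, 48.7 and 19.6.

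**Figure D1:**
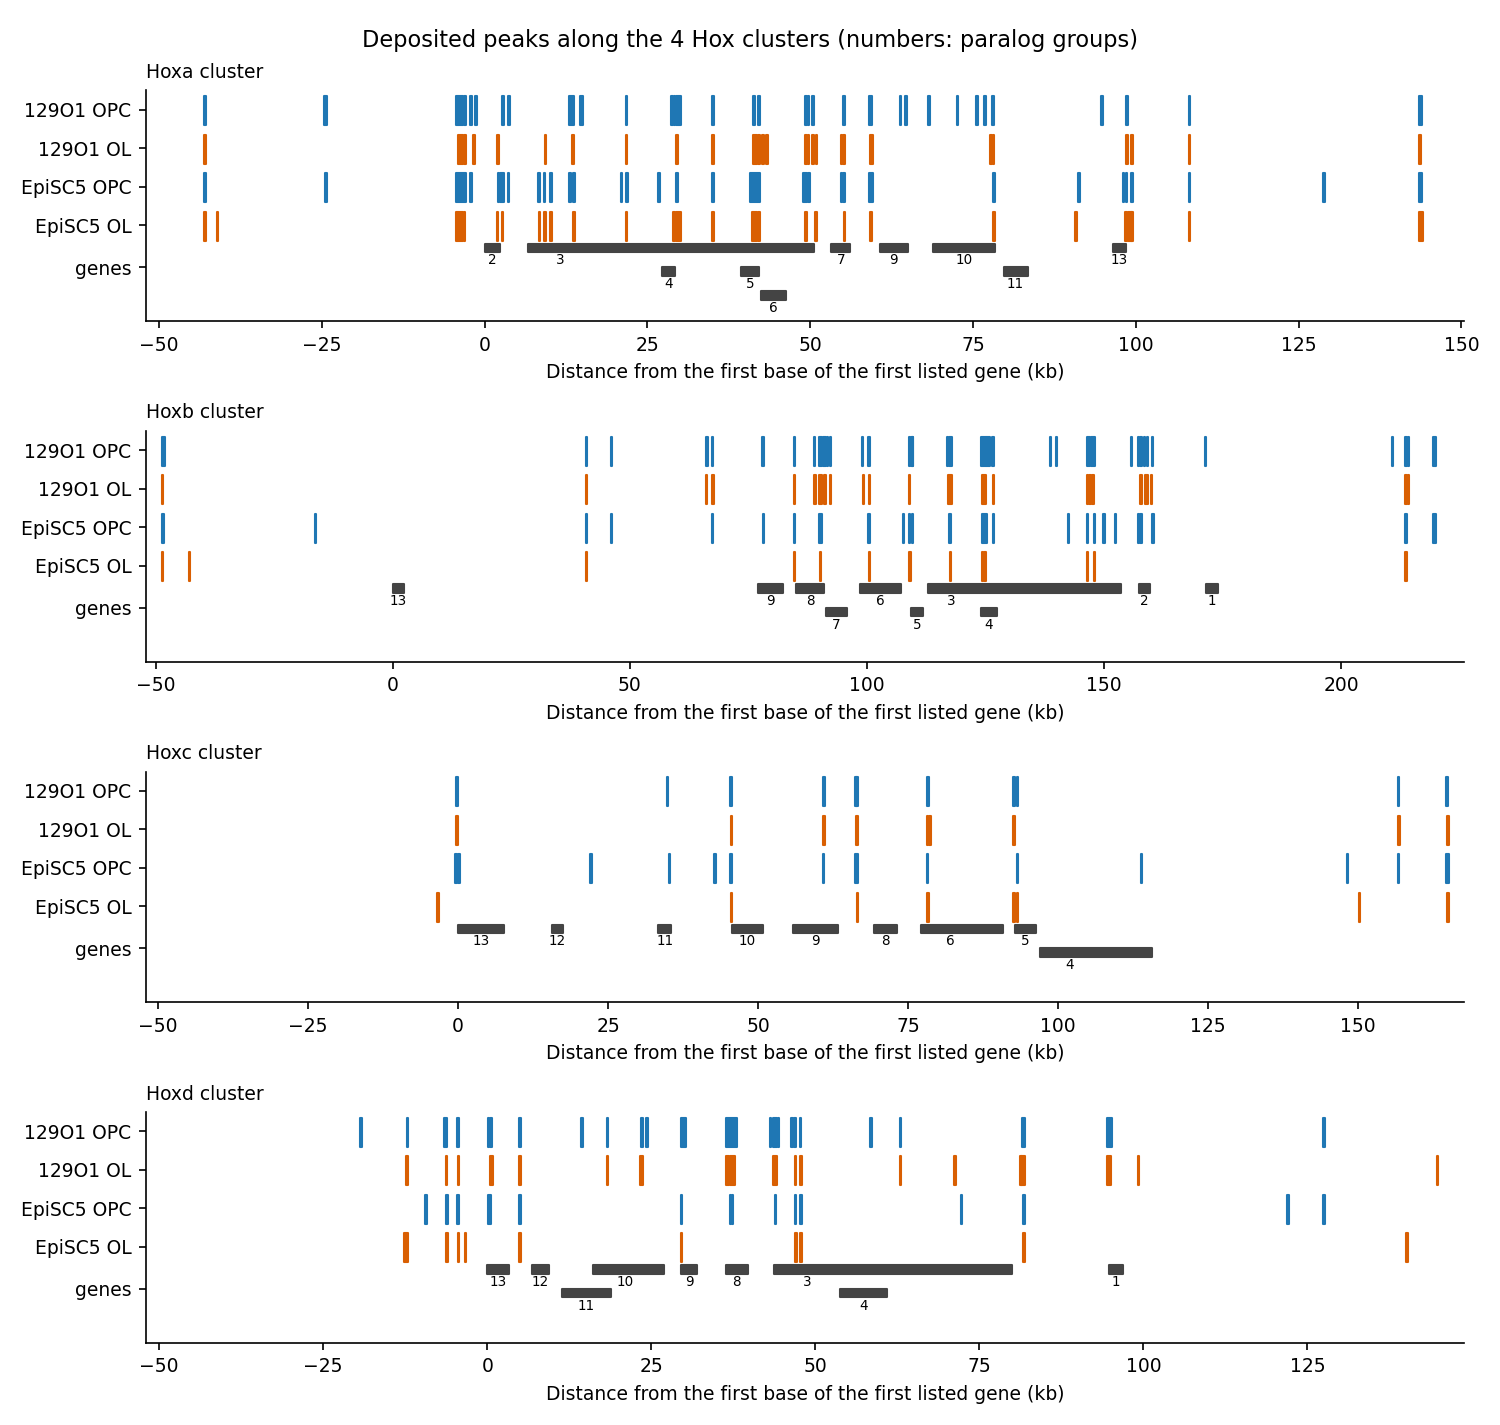
Peaks of the 4 libraries along each Hox cluster, as distance in kb from the first base of the first listed gene (blue, OPC; orange, OL; peaks are drawn at least 250 bp wide). Grey bars are the listed genes with their paralog group number. Hoxa carries 28 to 36 peaks in every library, and Hoxb falls from 44 in 129O1 OPCs to 13 in EpiSC5 OLs.

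Peaks inside the clusters were low for their lists. Between the first and last gene the median fold enrichment over background, the authors' own value for each peak, was 4.29, 5.21, 4.66 and 5.98 in the 4 libraries, against medians of 6.68 to 6.86 over the whole lists. Of the 94 such peaks of 129O1 OPCs, 85.1% were below their list's median, and of the 41 of EpiSC5 OLs, 63.4%. A site without a listed peak is one at which no peak passed the caller's threshold, which does not mean closed chromatin. The stated number of reads is the same for every library, but the number mapped and used for each list is unknown.

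The first question was whether the clusters differ between OPCs and OLs. All 4 clusters had less covered sequence in OLs than in OPCs in both lines, and 1 of the 4, Hoxa, passed the test. Of all windows tested, 51.7% had a negative log2 difference of OL minus OPC. The share of windows lower in both lines is not given here. Hoxa covered 8.99 kb in 129O1 OPCs, 6.76 kb in 129O1 OLs, 9.52 kb in EpiSC5 OPCs and 7.0 kb in EpiSC5 OLs. Both OL libraries were below both OPC libraries. OPCs averaged 9.25 ± 0.376 kb and OLs 6.88 ± 0.173 kb (SD, n = 2 each), a log2 difference of -0.42 (SE 0.09, limma adjusted p = 0.0256), or 1.34-fold lower. The lines gave -0.40 and -0.43. Of the 9888 windows of 200 kb tested alongside, 8.93% were lower and 9.70% higher in OLs by the same test. The Hoxa call was lost by each choice that sets aside peak width: limma gave adjusted p = 0.139 by number of peaks and 0.118 when each peak was cut to the same width around its summit. Without scaling it was 0.0588, and with the best 50% of peaks 0.368. It was also lost without any 1 of the 4 libraries (adjusted p = 0.0660 to 0.125), with log2 differences of -0.46 to -0.38.

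The Hoxb cluster covered 11.3 and 6.99 kb in the OPCs and OLs of 129O1, and 6.83 and 1.70 kb in those of EpiSC5. The OL library of 129O1 lay above the OPC library of EpiSC5, so the groups overlapped. The log2 difference was -1.28 (SE 0.55, limma adjusted p = 0.140), with -0.68 in 129O1 and -1.89 in EpiSC5. It ranged from -2.25 without 129O1 OLs to -0.32 without EpiSC5 OLs. Hoxc covered 2.05 and 1.70 kb in 129O1 and 3.53 and 1.47 kb in EpiSC5, a log2 difference of -0.70 (SE 0.28, limma adjusted p = 0.113) that was -1.07 without 129O1 OPCs and -0.34 without EpiSC5 OPCs. Here both OL libraries were below both OPC libraries, as in 33.3% of all windows tested. Hoxd covered 7.45 and 6.14 kb in 129O1 and 2.97 and 1.92 kb in EpiSC5, with the 129O1 OL library well above the EpiSC5 OPC library and a log2 difference of -0.43 (SE 0.55, limma adjusted p = 0.607). With the cell line as a block, so that each OL library is compared with the OPC library of its own line, the 3 clusters gave limma adjusted p = 0.000245, 0.0329 and 0.0308 for Hoxb, Hoxc and Hoxd, and all 4 clusters passed, where 16.9% of windows were lower by that fit. An exact permutation test of 2 against 2 libraries cannot go below p = 0.33, which is the value it gave for Hoxa.

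**Figure D2:**
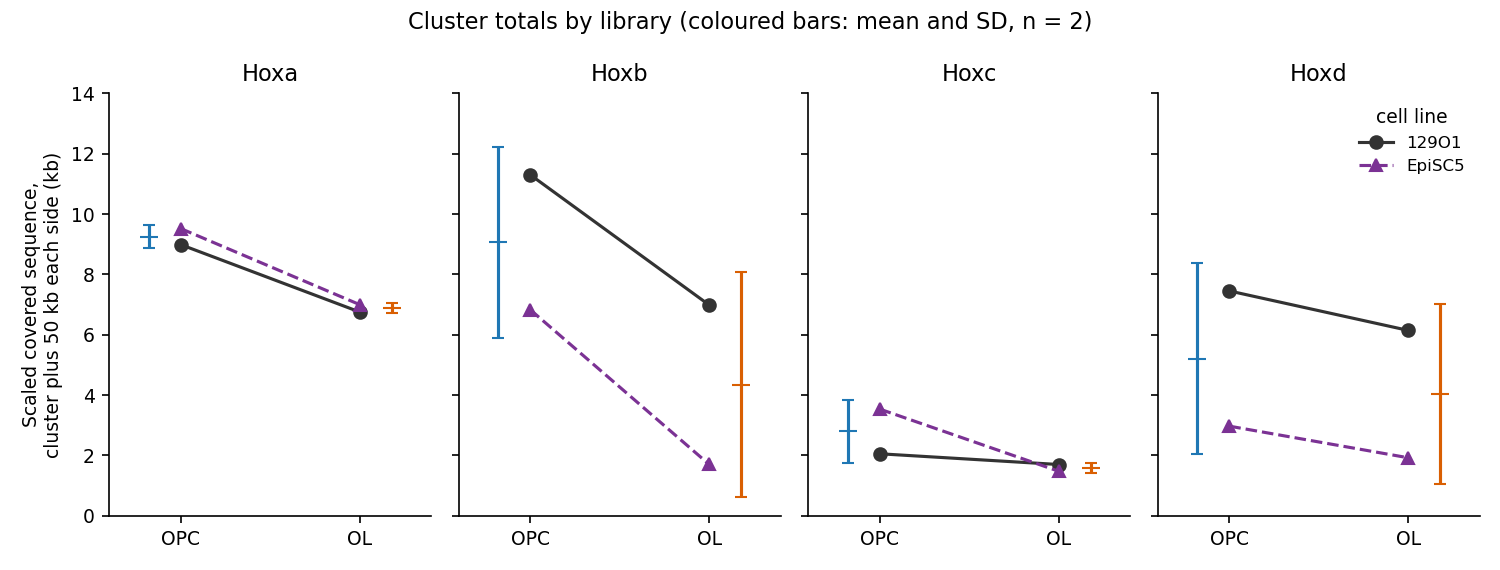
Scaled covered sequence (kb) of each cluster plus 50 kb on either side in OPCs and OLs. Lines join the libraries of 1 cell line; coloured bars are the mean and SD of the 2 libraries of a cell type. Hoxa falls from 8.99 and 9.52 kb to 6.76 and 7.0 kb, and in Hoxb and Hoxd each EpiSC5 library lies below the 129O1 library of the same cell type.

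At the level of single genes, 13 of the 38 reached the minimum mean of 500 bp of covered sequence needed for the test. Hoxa9, at 516 bp, was just inside that limit and Hoxa13, at 484 bp, just outside. Of the 13, 5 were Hoxa genes, 6 Hoxb genes and 2 Hoxd genes; no Hoxc gene passed. Hoxb4 and Hoxb6 were lower in OLs and none was higher (limma, adjusted p below 0.05), where 8.63% of all 14543 genes tested were lower and 11.0% higher. At an unadjusted p below 0.05, 5 of the 13 were lower and 0 higher (14.3% and 16.5% of all genes tested). The log2 difference was negative for 11 of the 13 (53.1% of all genes tested), with a median of -0.40 against -0.02 over all genes. The sign of that median depended on 1 library: it was 0.11 without EpiSC5 OLs and -1.04 without 129O1 OLs, over the Hox genes then tested, and -0.06 with the best 50% of peaks. The members are not separate measurements, since neighbouring gene regions share peaks. Both OL libraries were below both OPC libraries for 4 of the 13 (28.1% of all genes tested) and above for 0 (27.4%).

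Among the anterior genes, Hoxa3 and Hoxb3, long genes of pharyngeal and hindbrain patterning, had the most covered sequence of all members. The Hoxa3 interval reaches over Hoxa4, Hoxa5 and Hoxa6, and that of Hoxb3 over Hoxb4. Hoxa3 covered 3.58 and 3.44 kb in 129O1 OPCs and OLs and 4.25 and 3.24 kb in EpiSC5 OPCs and OLs (log2 difference -0.21, SE 0.15, limma adjusted p = 0.370). Its OL libraries lay below its OPC libraries by less than the test could separate. Hoxb3 covered 3.71, 2.89, 2.28 and 0.643 kb in the same order (log2 difference -0.95, SE 0.36, limma adjusted p = 0.0698), and its difference ranged from -1.90 without 129O1 OLs to -0.01 without EpiSC5 OLs. The EpiSC5 OL library was the lowest by far, and the 129O1 OL library exceeded the EpiSC5 OPC library. Hoxb2, used in the hindbrain, covered 1.36, 1.22 and 0.734 kb and had no listed peak in EpiSC5 OLs (limma adjusted p = 0.138). Hoxd3, which shapes the first cervical vertebrae, covered 2.31, 2.03, 1.03 and 0.666 kb (log2 difference -0.34, SE 0.32, limma adjusted p = 0.539), so the 129O1 libraries were both above the EpiSC5 libraries. Hoxa2, known for patterning the second branchial arch, fell short of the test's minimum, with 0.557 and 0.602 kb in OPCs and 0.263 and 0.312 kb in OLs. Hoxb1, a marker of rhombomere 4 in the hindbrain, had 1 listed peak, in 129O1 OPCs.

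The central genes held both calls. Hoxb4 (chromosome 11, 96318267 to 96321638), known for its role in blood stem cell growth, covered 1.62 kb in 129O1 OPCs, 0.993 kb in 129O1 OLs, 1.05 kb in EpiSC5 OPCs and 0.321 kb in EpiSC5 OLs. Each OL library was below both OPC libraries, although 129O1 OLs and EpiSC5 OPCs were close. OPCs averaged 1.34 ± 0.403 kb and OLs 0.657 ± 0.475 kb (SD, n = 2), a log2 difference of -0.94 (SE 0.28, limma adjusted p = 0.0246). All of its covered sequence also belonged to other Hox gene regions, since the gene lies within the Hoxb3 interval. Hoxb6 (chromosome 11, 96292814 to 96301569) covered 0.805, 0.550, 0.827 and 0.183 kb, with OPCs at a mean of 0.816 ± 0.0160 kb and OLs at 0.367 ± 0.260 kb (SD, n = 2) and a log2 difference of -0.92 (SE 0.32, limma adjusted p = 0.0468); with the line as a block it was 0.0781. The OPC libraries agreed closely, and the OL libraries spread over a wide range below them. Of its covered sequence, 42.4% was shared with other Hox gene regions. Without EpiSC5 OLs both calls were lost and both differences shrank, to -0.34 for Hoxb4 (limma adjusted p = 0.359) and -0.44 for Hoxb6 (0.341). Without 129O1 OPCs the calls were also lost, with Hoxb4 at -0.67 (limma adjusted p = 0.150) and Hoxb6 at -0.94 (0.101), as large as with all libraries. Without 129O1 OLs they were -1.55 and -1.42, both called. Without EpiSC5 OPCs, Hoxb4 was -1.20 and called, and Hoxb6 fell under the minimum and was not tested. Without scaling both calls were lost at slightly larger differences, -1.04 for Hoxb4 (limma adjusted p = 0.134) and -1.02 for Hoxb6 (0.120). By number of peaks they were lost at -0.70 (0.293) and, for Hoxb6, at a much smaller -0.30 (0.6).

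Hoxb8, whose loss makes mice groom in excess, covered 1.58, 1.29, 0.615 and 0.378 kb and Hoxb7 1.22, 1.01, 0.441 and 0.265 kb, neither of them called. For both genes the line separated the libraries and the cell type did not. All covered sequence of Hoxb7 and 75.2% of that of Hoxb8 also belonged to other Hox gene regions. The 2 genes share peaks and are not separate observations. Hoxb5 covered 0.614 and 0.795 kb in OPCs and 0.218 and 0.0810 kb in OLs, too little for the test. Hoxa4 covered 0.904, 0.411, 0.621 and 0.647 kb (limma adjusted p = 0.330). Hoxa5, a gene of lung and cervical development, and Hoxa6 are neighbours whose regions hold the same peaks. Each covered 0.552 and 1.23 kb in 129O1 OPCs and OLs and 1.41 and 0.999 kb in EpiSC5 OPCs and OLs (log2 difference 0.25, SE 0.25, limma adjusted p = 0.577). They were the only 2 of the 13 with a positive difference. Hoxd8 covered 1.62, 1.48 and 0.290 kb, with no listed peak in EpiSC5 OLs (limma adjusted p = 0.526). Hoxc6, used in brachial motor neurons and the most covered gene of its cluster, held 0.472, 0.516, 0.250 and 0.490 kb and was one of 2 genes, with Hoxa13, for which both OL libraries were above both OPC libraries. Hoxc5 covered 0.338, 0.0998, 0.249 and 0.173 kb.

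The posterior genes had the least covered sequence by median, and 1 of the 16, Hoxa9, was tested. Covered sequence was not divided by the length of the gene region. Hoxa3, Hoxb3 and Hoxd3 are far longer than any posterior gene, so the order of the groups may partly reflect length. Hoxa9, best known for its part in leukaemia and in limb and lumbar patterning, covered 0.914, 0.262, 0.526 and 0.364 kb (log2 difference -0.82, SE 0.32, limma adjusted p = 0.0864). Hoxa13, the last gene of its cluster and a factor of the distal limb and hindgut, covered 0.235 and 0.439 kb in OPCs and 0.460 and 0.804 kb in OLs, so that it was higher in OLs in both lines, without a test. Hoxd13, a gene of digit formation, covered 0.446, 0.404, 0.575 and 0.171 kb. Hoxc13, a gene of hair and nails, covered 0.121, 0.113 and 0.523 kb with no listed peak in EpiSC5 OLs, and Hoxc10 between 0.111 and 0.195 kb in all 4 libraries. Hoxa10 covered 0.910, 0.404, 0.181 and 0.175 kb. Of the members not described singly, Hoxa7, Hoxa11, Hoxb9, Hoxc4, Hoxc9, Hoxc11, Hoxd9 and Hoxd12, none was tested and none exceeded 0.455 kb in any library. Hoxb13, Hoxc8 and Hoxc12 had no listed peak in any library. Of the 38 genes, 22 had a peak in all 4 libraries, and 34, 30, 30 and 23 had one in 129O1 OPCs, 129O1 OLs, EpiSC5 OPCs and EpiSC5 OLs. No share of all genes is given beside these counts, so they only describe the members.

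**Figure D3:**
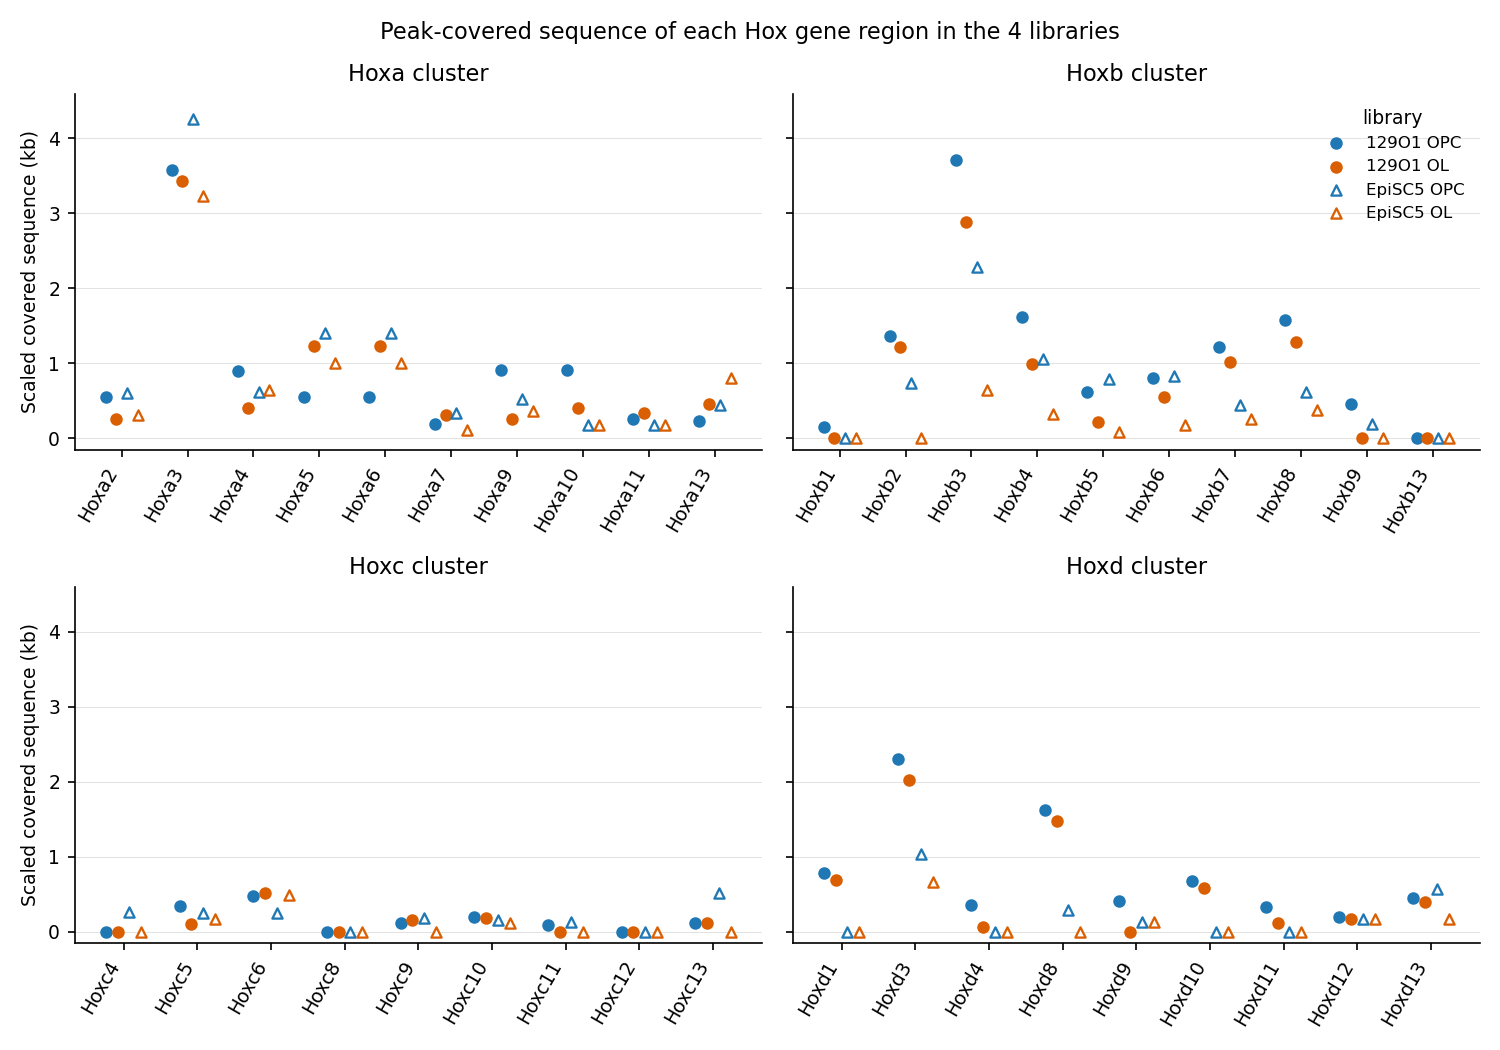
Scaled covered sequence (kb) of each of the 38 Hox gene regions by library, genes ordered by paralog group (blue, OPC; orange, OL; filled circles, 129O1; open triangles, EpiSC5). Hoxa3 and Hoxb3 reach 4.25 and 3.71 kb, no Hoxc gene exceeds 0.523 kb, and Hoxd1, Hoxd4, Hoxd10 and Hoxd11 have no peak in either EpiSC5 library.

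The cell lines were then compared, with the cell type in the model, a comparison added after the values had been seen. The fitted difference of EpiSC5 minus 129O1 was negative for every tested Hoxb and Hoxd gene. It was also negative for 1 of the 5 tested Hoxa genes. None of these differences passed the adjusted threshold. For Hoxb6 the OPC libraries did not go that way, with 0.827 kb in EpiSC5 and 0.805 kb in 129O1. Of the 13 tested, 9 had a negative log2 difference of EpiSC5 minus 129O1, including all 6 of Hoxb and both of Hoxd, with a median of -0.87 against -0.09 over all genes tested, of which 69.6% were negative. None passed the adjusted threshold in limma (0 lower, 0 higher), where 0.00688% of all genes tested were lower and 0.0206% higher, which are 1 and 3 genes. At an unadjusted p below 0.05, 7 of the 13 were lower in EpiSC5 and 0 higher (7.83% and 3.64% of all genes tested). Both EpiSC5 libraries were below both 129O1 libraries for 6 of the 13, against 26.3% of all genes tested, and above for 0 (5.57%). Hoxb7 and Hoxb8, whose regions share peaks, are both in these counts. Hoxd3 averaged 2.17 ± 0.200 kb in 129O1 and 0.849 ± 0.258 kb in EpiSC5 (SD, n = 2), a log2 difference of -1.19 (SE 0.13, limma adjusted p = 0.0765). Hoxb8 gave -1.25 (SE 0.14, limma adjusted p = 0.0915), and Hoxd8, at 1.55 ± 0.0987 kb in 129O1 and 0.145 ± 0.205 kb in EpiSC5, gave -2.48 (SE 0.32, limma adjusted p = 0.161). Hoxa3 gave 0.08 (SE 0.13, limma adjusted p = 0.797). With a pseudocount of 1000 bp in place of 200 bp, Hoxb8, Hoxd3 and Hoxd8 passed, 3 of 13 against 0.0619% of all genes. By number of peaks, where 27 Hox genes reached the minimum, 5 passed against 0.501% of all genes: Hoxb2, Hoxb7, Hoxb8, Hoxd3 and Hoxd10, the last of which is outside the 13. Here too Hoxb7 and Hoxb8 are not separate observations.

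**Figure D4:**
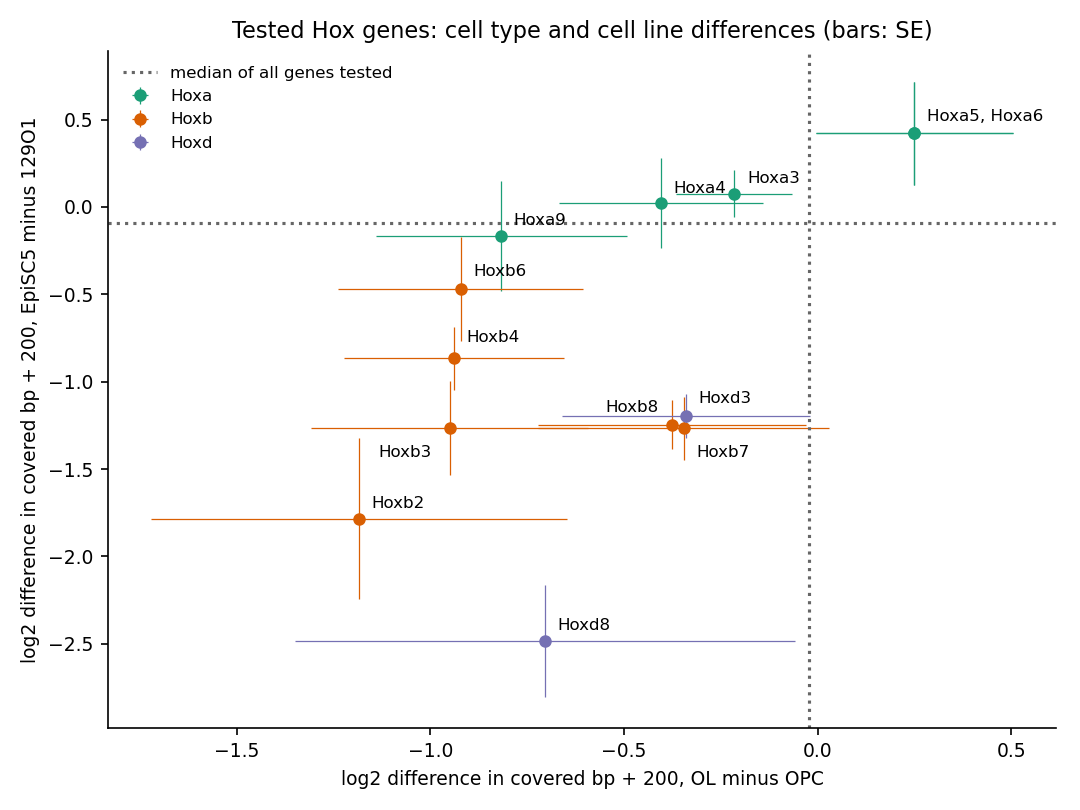
The 13 tested Hox genes by their log2 difference between cell types (x axis, OL minus OPC) and between lines (y axis, EpiSC5 minus 129O1), both of covered bp + 200; bars are standard errors and dotted lines the medians of all genes tested (-0.02 and -0.09). Standard errors on the x axis are from a fit without the line, and those on the y axis from a fit with the cell type. Their lengths are therefore not comparable between the axes. Hoxb and Hoxd genes lie below the horizontal line, down to -2.48 for Hoxd8, and the Hoxa genes lie between -0.17 and 0.42.

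Among the genes too low to test, Hoxd1, Hoxd4, Hoxd10 and Hoxd11 had peaks in both 129O1 libraries and none in EpiSC5. No share of all genes with this pattern is given here, so how common it is among little-covered genes is not known. Hoxd1, an anterior gene expressed in nociceptive neurons, covered 0.783 kb in 129O1 OPCs and 0.690 kb in 129O1 OLs. Hoxd10, a gene of lumbar motor columns, covered 0.683 and 0.579 kb, Hoxd4 0.360 and 0.0669 kb, and Hoxd11 0.334 and 0.113 kb. The peak at the Hoxd1 start, merged over libraries (chromosome 2, 74762716 to 74763476), had a fold enrichment of 9.95 in OPCs and 8.83 in OLs, and that at Hoxd10 (74691518 to 74691947) had 7.42 and 10.2. All 4 values exceeded the medians of their lists, 6.86 in 129O1 OPCs and 6.68 in 129O1 OLs.

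Peaks of all 4 lists within the clusters were merged into 157 regions and sorted by the libraries that list them, with no test. Regions listed by both libraries of a cell type and neither of the other were 10 for OPCs (6.37%, against 9.89% of all 229485 regions of the genome) and 1 for OLs (0.637% against 15.6%). Regions listed by both 129O1 libraries and neither EpiSC5 library were 15 (9.55% against 0.672%), 9 of them in Hoxb, 5 in Hoxd and 1 in Hoxa. Regions of both EpiSC5 libraries alone were 2 (1.27% against 1.41%), both within Hoxa3. A peak in every library was found at 36 (22.9% against 24.1%), and in all but the EpiSC5 OL library at 11 (7.01% against 1.98%). A single library listed 71 (45.2% against 38.5%), of which 31 were from 129O1 OPCs.

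**Figure D5:**
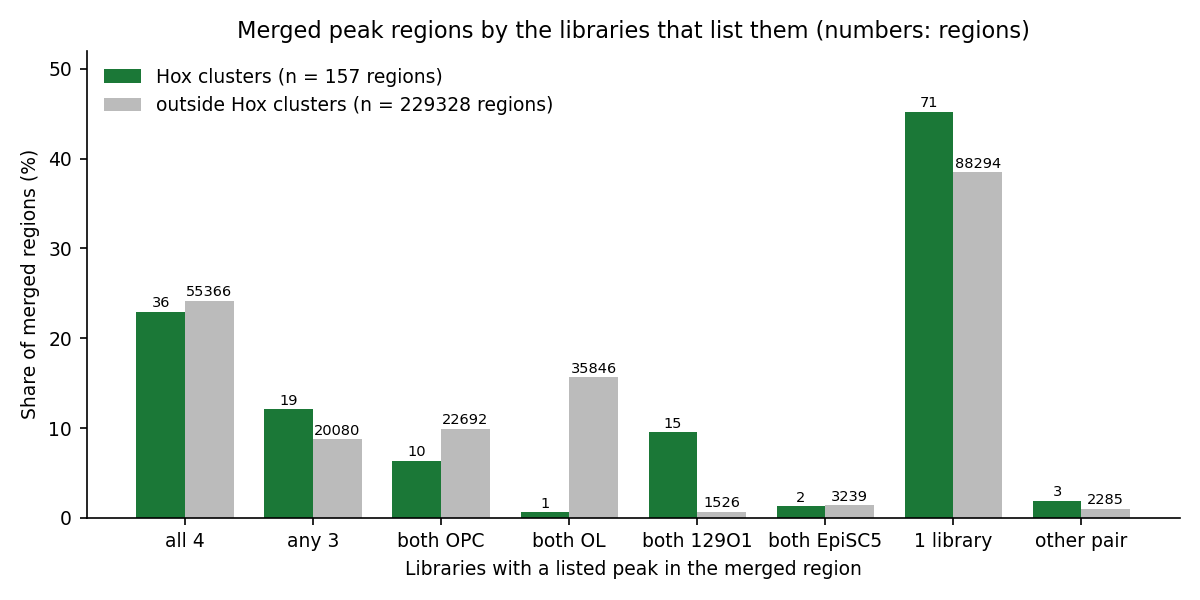
Share of merged peak regions (%) by the libraries that list them, in the Hox clusters (green, 157 regions) and in the rest of the genome (grey, 229328 regions); numbers above the bars are counts of regions. OL regions are 1 of 157 in the clusters, and regions of the 129O1 line alone are 15 of 157.

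The 10 OPC regions lay both in the clusters and beside them. The strongest was 24.4 kb outside Hoxa2 (chromosome 6, 52137915 to 52138118), outside any protein-coding gene, with fold enrichments of 17.5 in 129O1 and 12.7 in EpiSC5 OPCs. The next was 45.7 kb beyond Hoxb1 (chromosome 11, 96413538 to 96414354), with 12.02 and 12.36, and another lay 30.6 kb beyond Hoxd1 (chromosome 2, 74795558 to 74795935), with 9.80 and 6.61. These 3 regions are between genes, and which gene they act on, if any, was not measured. Within Hoxb, OPC regions overlapped Hoxb9 (96272126 to 96272567, fold 6.37 and 5.46) and Hoxb5 (96303674 to 96304112, fold 4.33 and 3.85). The region of OLs alone (chromosome 6, 52213191 to 52213390) had its midpoint 0.223 kb upstream of the start of Hoxa3, which is on the minus strand, with fold 2.69 and 5.53. Regions of all 4 libraries included 1566 bp over Hoxa5 (52203146 to 52204711) and 790 bp over Hoxb4 (96318818 to 96319607).

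Promoters were examined as the 250 bases upstream of annotated starts, which the RefSeq table for GRCm38.p6 gave as 24 windows for 22 of the 38 genes. Hoxa4, Hoxb2, Hoxb3, Hoxb5, Hoxb6, Hoxb7, Hoxb9, Hoxb13, Hoxc5, Hoxc6, Hoxc8, Hoxc9, Hoxc10, Hoxc11, Hoxc12 and Hoxc13 were not matched. A peak overlapped 9, 6, 4 and 5 of the 24 windows in the 129O1 OPC, 129O1 OL, EpiSC5 OPC and EpiSC5 OL libraries (37.5%, 25.0%, 16.7% and 20.8%). Of all 32851 promoter windows, the shares were 45.0%, 41.7%, 45.7% and 42.2%. Those windows belong to 27025 genes, more than the 21887 protein-coding genes used elsewhere. In 14 of the 24 no library listed a peak. Hoxa5 and Hoxa13 were overlapped in all 4 libraries. The Hoxa3 window (52213068 to 52213317) was overlapped in both OL libraries, by 80 bp in 129O1 and 127 bp in EpiSC5, and in neither OPC library, through the region of OLs alone described above. It was the 1 such window of the 24, against 195 of all 32851, and the reverse pattern was seen in 0 of the 24 and 777 of all. Hoxd1, Hoxd3 and Hoxd10 were overlapped in both 129O1 libraries and in neither EpiSC5 library, a pattern of 12.5% of the Hox windows and 0.189% of all windows. For Hoxd3 this depends on the window's edge. The merged region there (chromosome 2, 74711758 to 74712416) also held an EpiSC5 OPC peak, inside the gene just past the window. Its fold enrichment was 5.02, against 3.89 in 129O1 OPCs and 5.03 in 129O1 OLs.

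The promoters of the 3 Hoxd genes are shown because a peak overlapped them in both 129O1 libraries and in neither EpiSC5 library. They are given on the plus strand of chromosome 2, 5′ to 3′, ending at the base before the start. Capitals mark bases that lie under a peak in both 129O1 libraries, and none of these bases lies under an EpiSC5 peak. The windows are chr2:74762730-74762979 for Hoxd1, chr2:74711743-74711992 for Hoxd3 and chr2:74691641-74691890 for Hoxd10.
Hoxd1: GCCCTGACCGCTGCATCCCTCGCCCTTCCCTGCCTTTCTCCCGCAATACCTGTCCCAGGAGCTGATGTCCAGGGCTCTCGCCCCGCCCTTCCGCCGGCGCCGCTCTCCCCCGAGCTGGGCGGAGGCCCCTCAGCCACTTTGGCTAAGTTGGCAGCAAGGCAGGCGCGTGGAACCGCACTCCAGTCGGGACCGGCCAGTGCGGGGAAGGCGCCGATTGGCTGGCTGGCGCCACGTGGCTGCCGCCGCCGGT
Hoxd3: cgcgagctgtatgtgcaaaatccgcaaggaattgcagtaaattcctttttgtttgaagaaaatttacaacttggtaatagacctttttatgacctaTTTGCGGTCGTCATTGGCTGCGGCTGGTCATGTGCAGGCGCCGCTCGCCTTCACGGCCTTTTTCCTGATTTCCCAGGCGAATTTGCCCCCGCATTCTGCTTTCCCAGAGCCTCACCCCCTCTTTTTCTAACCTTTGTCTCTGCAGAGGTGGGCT
Hoxd10: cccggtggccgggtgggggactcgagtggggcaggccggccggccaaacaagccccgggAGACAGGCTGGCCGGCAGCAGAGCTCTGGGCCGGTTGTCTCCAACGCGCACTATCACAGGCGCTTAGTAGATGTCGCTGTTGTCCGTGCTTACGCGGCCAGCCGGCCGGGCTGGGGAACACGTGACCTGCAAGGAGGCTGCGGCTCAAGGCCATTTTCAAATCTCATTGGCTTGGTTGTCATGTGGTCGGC
The whole Hoxd1 window was under peaks in both 129O1 libraries, as were 154 of 250 bases of Hoxd3 and 191 of 250 of Hoxd10. In all 3 the covered bases reach the base before the start. At Hoxd3 an EpiSC5 OPC peak lay just past the window, inside the gene.

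For comparison, the promoters of Hoxa5 (minus strand, chr6:52204588-52204837) and Hoxa13 (minus strand, chr6:52260881-52261130) are shown because a peak overlapped them in every library. Capitals mark bases under a peak in all 4 libraries.
Hoxa5: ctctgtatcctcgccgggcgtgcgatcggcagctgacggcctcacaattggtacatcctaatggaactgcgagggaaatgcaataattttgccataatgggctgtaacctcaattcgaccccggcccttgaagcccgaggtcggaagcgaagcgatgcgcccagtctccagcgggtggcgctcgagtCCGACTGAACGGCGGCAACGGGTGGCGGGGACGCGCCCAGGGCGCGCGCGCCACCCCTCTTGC
Hoxa13: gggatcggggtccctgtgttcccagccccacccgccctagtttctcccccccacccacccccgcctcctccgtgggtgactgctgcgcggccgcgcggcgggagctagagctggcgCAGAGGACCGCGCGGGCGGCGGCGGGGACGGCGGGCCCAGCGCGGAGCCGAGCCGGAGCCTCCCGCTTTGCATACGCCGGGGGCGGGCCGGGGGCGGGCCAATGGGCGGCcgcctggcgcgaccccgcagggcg
The bases common to all 4 libraries were 63 of 250 in Hoxa5, at its start, and 110 of 250 in Hoxa13.

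The 24 windows were rich in CpG, with a median of 12.5 CpG and 58.6% G+C, against 6 CpG and 52.4% in all promoter windows. The sequence CCAAT, searched on both strands, was in 14 of them (58.3%, against 33.8% of all windows). TGATNNAT, the core of the site bound by Hox proteins with their Pbx partners, was in 4 (16.7% against 7.68%): Hoxa2, Hoxb1, Hoxb8 and Hoxd11. CACGTG, an E-box, was in 4 (16.7% against 6.02%), which included Hoxd1 and Hoxd10. CAGCTG, an E-box of another kind, was in 3 (12.5% against 13%), and TATAAA in 4 (16.7% against 12.4%). These matches describe the letters of the windows and no binding was measured.

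Genes that act with or on the clusters were read from lists. Of the Hox cofactors, the Pbx, Meis and Pknox genes whose proteins bind DNA beside Hox proteins, 9 were tested. Of these, 1 was lower in OLs and none higher (8.63% and 11.0% of all genes tested), with a median log2 difference of 0.02. The 1 was Meis2, which covered 5.75 and 6.12 kb in OPCs and 3.26 and 3.81 kb in OLs (log2 difference -0.72, SE 0.14, limma adjusted p = 0.00157). Of the upstream regulators, the Cdx, retinoic acid and segment genes, 8 of 13 were tested and 0 passed in either direction (limma), with a median of -0.06. At an unadjusted p below 0.05, 2 were lower and 0 higher (14.3% and 16.5% of all genes tested). The largest differences were those of Rarg, a retinoic acid receptor (log2 difference -0.47, SE 0.17, limma adjusted p = 0.0635), and Cyp26b1, which breaks retinoic acid down (0.31, SE 0.16, limma adjusted p = 0.203).

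Of 20 Polycomb and trithorax genes tested, 2 were higher and 2 lower in OLs, near the shares of all genes tested (11.0% and 8.63%), with a median log2 difference of -0.06. Those higher were Rnf2 (log2 difference 0.58, limma adjusted p = 0.0150) and Phc1 (0.53, adjusted p = 0.0245), and those lower were Ring1 (-0.74, adjusted p = 0.00444) and Kmt2a (-0.42, adjusted p = 0.0483), the last a trithorax methyltransferase needed to maintain Hox expression. Rnf2 and Ring1 encode alternative catalytic subunits of the same Polycomb complex. Among the genes that flank the clusters, 11 of 16 listed were tested, with a median of -0.30. Of these, 3 were lower and none higher (8.63% and 11.0% of all genes tested). The 3 were Skap1 and Ttll6, both beside Hoxb, and Cbx5, beside Hoxc. Skap1 covered 2.67 and 1.62 kb in OPCs and 1.14 and 0.436 kb in OLs (log2 difference -1.31, SE 0.26, limma adjusted p = 0.00164). Ttll6 covered 1.39 and 1.07 kb against 0.462 and 0.458 kb (log2 difference -1.11, SE 0.21, limma adjusted p = 0.00125). Part of Ttll6 lies in the 50 kb beside Hoxb that the cluster total includes.

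The forebrain and midbrain patterning genes were used as the comparison list. Of 22, 13 were tested, and 2 were lower in OLs and none higher (8.63% and 11.0% of all genes tested). Of the 13 differences, 12 were negative (53.1% of all genes tested), with a median of -0.30. Emx2, a gene of the dorsal forebrain, covered 0.754 and 1.14 kb in OPCs and 0.387 and 0.120 kb in OLs (log2 difference -1.38, SE 0.34, limma adjusted p = 0.00654), and Lhx6, of ventral forebrain interneurons, 1.31 and 1.25 kb against 0.694 and 0.779 kb (log2 difference -0.66, SE 0.18, limma adjusted p = 0.0137). Both lists thus had 2 of 13 genes called lower. In the line comparison the forebrain list had a median of -0.14 and the Hox genes -0.87; the difference between the lists was not tested.

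Marker genes of other cells were read beside these results. Of all genes tested, 8.63% were lower and 11.0% higher in OLs (limma, adjusted p below 0.05). Of 6 vascular and mesenchymal markers, 5 were lower in OLs and none higher, with a median log2 difference of -1.11 and a summed covered sequence of 10.7 and 10.6 kb in OPCs against 4.58 and 4.39 kb in OLs. Astrocyte markers had 2 of 6 lower and 0 higher, with 11.6 and 11.9 kb in OPCs and 8.85 and 8.03 kb in OLs. Neuronal markers had 3 of 6 lower and 0 higher, with 25.4 and 28.8 kb in OPCs and 25.5 and 24.9 kb in OLs. Of the 6 neuronal differences, 3 were negative. At an unadjusted p below 0.05 (limma), 3 were lower and 2 higher. None of these lists lacked listed peaks for any of its genes. Their part in the Hox results was not tested, and in bulk libraries fewer cells of a type and less accessibility per cell cannot be told apart.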

How the data were processed

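Omni-ATAC-seq was done on nuclei of 50000 cells with 30 min of transposition at 37 °C and sequenced as single-end reads of 50 bp, per the labels' protocols. The build was mm10 and the tools were MACS2, Picard, Bowtie2 2.3.2 and Trim Galore 0.3.1, per the submitters' processing notes. The peak caller's version and threshold, duplicate handling and any shift for the Tn5 cut were not found in the labels or file headers. The deposited files are 1 peak list per library, with the authors' score, fold enrichment (a linear ratio over background), −log10 p and −log10 q per peak. They served here to describe and rank the peaks of each list.

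Covered base pairs per gene (RefSeq GRCm38.p6 interval plus 2 kb on either side) were scaled to the mean list total and log2-transformed after adding 200 bp, so differences of little-covered genes are understated. Genes with a mean of at least 500 bp were tested with limma 3.58.1 in R 4.3.3 (two-sided moderated test with a variance trend and Benjamini-Hochberg adjustment over all genes tested). Clusters were fitted together with windows of 200 kb. Each line gave 1 OPC and 1 OL library, so the line pairs them. The comparisons of OLs with OPCs left the line out of the model unless a block is named. Across the 14543 genes tested, the difference between the lines in OPCs and in OLs had r = 0.29. Python 3.11.15 was used for the counting.

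The members, the gene lists and the tests were chosen with earlier results of these data known. Values are printed for called genes and the 4 most covered genes of each cluster; Hoxa2, Hoxa9, Hoxa10, Hoxa13, Hoxb1, Hoxb5, Hoxb7, Hoxd4, Hoxd10, Hoxd11 and the peak regions were singled out after their values were seen. Of the 16 cluster neighbours listed, 14 matched the annotation. Strand and genome sequence were used only through the promoter table, and 1 further Hox gene is not reported here.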

Additional observations from a re-analysis of the deposited data

Results flagged for a closer look

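In 3 of the 13 tested Hox genes the 2 lines moved in opposite directions between OPC and OL, and the difference between the lines was not tested. Hoxa4 had a log2 difference of OL minus OPC of -0.85 in 129O1 and 0.046 in EpiSC5. Hoxa5 had 0.93 in 129O1 and -0.43 in EpiSC5. Hoxa6, whose region holds the same peaks as that of Hoxa5, had the same values, 0.93 and -0.43, and is not a separate observation.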

How the results depend on the processing

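Without scaling, the median log2 difference of all genes moved from -0.02 to -0.13 and the share of lower genes among those called from 43.9% to 66.2%; with median-of-ratios scaling these were -0.01 and 40.1%. The line difference over all genes moved from -0.09 to 0.09 without scaling. The 2 Hox genes lower in OLs became 0 without scaling, with median-of-ratios scaling, with the best 50% of peaks by q, with lists of equal length, by number of peaks, with 200 bp around each summit and for the gene interval alone, 1 with a pseudocount of 50 bp, 1 with the line as a block, and 4 with 5 kb on either side. Without a filter the count stayed at 2 with 0 of the same genes: Hoxb5 and Hoxb9. Leaving out 1 library gave 1 to 8 lower (8 of 16 tested without 129O1 OL, against 8.12% of all genes, and 7 of 11 without EpiSC5 OPC, against 5.92%) and 0 to 2 higher, the 2 being Hoxa5 and Hoxa6 without EpiSC5 OPC (8.60% of all genes); the lone library of a cell type was then assumed to vary like the other group. The count lower in EpiSC5 moved from 0 to 3 of 13 with a pseudocount of 1000 bp (0.0619% of all genes), 5 of 27 by number of peaks (0.501%), 2 of 10 with summits (0.116%) and 4 of 17 with 5 kb (0.0718%); leaving out a library was not run there, since no residual degrees of freedom remain.

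For Hoxa the limma log2 difference was -0.53 without scaling (adjusted p = 0.0588), -0.26 with the best 50% of peaks (adjusted p = 0.368), -0.30 by number of peaks and -0.30 with summits, and -0.46 to -0.38 without 1 library. Hoxb passed without scaling at -1.40 (adjusted p = 0.0435) and Hoxc with 100 kb on either side at -1.03 (adjusted p = 0.0136). With the line as a block, Hoxb (-1.28), Hoxc (-0.70) and Hoxd (-0.43) passed. Hoxd was 0.21 without 129O1 OPC and 0.37 without EpiSC5 OL, with a range of -1.22 to 0.37 without 1 library; Hoxb ranged from -2.25 to -0.32 and Hoxc from -1.07 to -0.34. Without 129O1 OPC the sign also turned for Hoxa5 and Hoxa6 (-0.30), Hoxb8 (0.19), Hoxd3 (0.17) and Hoxd8 (0.24), and without EpiSC5 OL for Hoxb2 (0.23), Hoxb8 (0.31), Hoxd3 (0.34) and Hoxd8 (0.83). Over all such fits the values were -0.30 to 0.79 for Hoxa5 and Hoxa6, -1.07 to 0.31 for Hoxb8, -2.64 to 0.23 for Hoxb2, -1.90 to -0.01 for Hoxb3, -1.55 to -0.34 for Hoxb4, -1.42 to -0.44 for Hoxb6 (3 fits), -1.03 to 0.34 for Hoxd3 and -2.28 to 0.83 for Hoxd8. Hoxd3 was 0.10 with the best 50% of peaks. The causes were not tested. With the best 50% of peaks, 58 regions remained, 5 of OPCs alone and 2 of OLs alone. Without 1 library a class needs fewer peaks by construction, and the counts were 13 to 46 for OPCs alone, 3 to 12 for OLs alone, 17 to 46 for 129O1 alone and 5 to 22 for EpiSC5 alone. Although the stated number of reads is the same for every library, the number mapped and used for each peak list is unknown. No limit on undetected peaks can therefore be given.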
